A study of Mus musculus with 28 samples.

Results

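Mitochondrial ribosomal protein genes were examined in regulatory T cells (Tregs) of tumors and spleens: all rows of the deposited expression table whose symbol is Mrpl or Mrps followed by a number. The rule uses names only and took 57 of 13103 rows, and all 57 were among the 12509 genes with enough reads to test. By the usual assignment of their proteins, 35 belong to the large subunit, 21 to the small subunit, and Mrps36, despite its name, encodes a subunit of the 2-oxoglutarate dehydrogenase complex and belongs to neither. Members of the family without a row in the table were not analysed here.

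The study compared Tregs with high and low surface OX40, the product of Tnfrsf4, through which T cells receive a costimulatory signal. Foxp3-GFP mice, in which cells that express the Treg transcription factor Foxp3 fluoresce green, all received 500000 cells of the melanoma line B16 in the skin, and tumors and spleens were dissected 7 to 10 days later. GFP-positive CD4 T cells were sorted by OX40 into 4 groups, called after the labels tumor OX40plus (4 mice), tumor OX40minus (4 mice), spleen OX40plus (3 mice) and spleen OX40minus (3 mice). All mice carried the reporter and a tumor, so the spleens are those of tumor-bearing mice. Sex and age are not given in the labels.

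Mitochondrial ribosomes translate the few mRNAs that the mitochondrial genome itself encodes, all of them for core subunits of the respiratory chain and the ATP synthase. Their ribosomal RNAs come from the mitochondrial genome, but every one of their proteins is encoded in the nucleus, made in the cytosol and imported. The small subunit binds the mRNA and decodes it, and the large subunit joins the amino acids. Many of the proteins have relatives in bacterial ribosomes and others exist only in mitochondria. T cells enlarge their mitochondria and raise mitochondrial translation when they are activated and divide.

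Values are CPM, estimated read counts divided by an effective library size on the usual scale. Both were recovered from the deposited log2 values, and that size differed somewhat from the summed counts. The 2 libraries of a mouse and gate differed by about sampling noise, and their mean was counted once, as 1 sample. The depth of a sample was 22.4 to 29.6 M estimated counts, and 3 counts correspond to 0.104 to 0.13 CPM. Tnfrsf4 followed the gates within each tissue, with means of 3357 ± 203 CPM in tumor OX40plus and 1950.0 ± 152 CPM in tumor OX40minus Tregs (SD, n = 4 each), and 704 ± 111 CPM in spleen OX40plus and 253 ± 40.9 CPM in spleen OX40minus Tregs (SD, n = 3 each). The 8 Treg and T cell markers summed to 10240 to 11000 CPM in tumor OX40plus and 9143 to 9800 CPM in tumor OX40minus samples. In spleens they summed to 4929 to 5278 CPM in OX40plus and 3826 to 4300 CPM in OX40minus samples. Foxp3 stood at 32.1, 31.8 and 129.6 CPM in the 3 spleen OX40plus samples, so mouse 3 was far above the other two. Markers of other cells were also present. The 9 macrophage or monocyte markers in the table (of 11 listed) summed to 51.9 to 65.7 CPM in tumor OX40plus, 221 to 333 CPM in tumor OX40minus, 82.0 to 197 CPM in spleen OX40plus and 739 to 942 CPM in spleen OX40minus samples, with none of the 9 at 0 throughout a group. The 6 B cell markers in the table (of 8) summed to 1.23 to 3.68 CPM in tumor OX40plus and 3.32 to 6.96 CPM in tumor OX40minus samples, and to 441 to 663 CPM in the spleen samples. The 6 melanocyte or B16 markers in the table (of 7) summed to 69.3 to 184 CPM in tumor OX40plus and 92.5 to 138 CPM in tumor OX40minus, and to 12.6 to 22.4 CPM in spleen samples. In bulk samples such as these, fewer cells of a type and less RNA per cell cannot be told apart.

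A few samples stood apart within their group for most members. Tumor OX40plus mouse 4 had the highest level of its group for 43 of 57 members, spleen OX40plus mouse 3 for 52 and spleen OX40minus mouse 1 for 53. Such counts over all genes were not made. The same 3 samples had the highest share of cytosolic ribosomal protein transcripts in their groups, at 2.96%, 7.14% and 7.55% of the total.

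The members were all expressed, but at very different levels. The mean over all 14 samples, per kilobase of the principal transcript, ran from 1.40 CPM per kilobase for Mrpl28 to 217 for Mrpl33, with a median of 33.9. Mrpl33 was the highest through the tumor samples: in spleens it averaged 108 CPM per kilobase in OX40plus and 102 in OX40minus Tregs, below the 214 and 174 CPM per kilobase of Mrpl52 in the same groups. After Mrpl33 the highest were Mrpl52 at 189.8, Mrps21 at 144, Mrpl54 at 142 and Mrpl4 at 118 CPM per kilobase. After Mrpl28 the lowest were Mrpl1 at 7.08, Mrpl17 at 7.69, Mrps25 at 7.98 and Mrpl35 at 8.81 CPM per kilobase. The principal transcripts of these 4 have 3556, 7300, 6073 and 3721 bases in the annotation, within a range of 418 to 7300 for the 57, and a shorter transcript in use would place a gene higher. In 56 of 57 members the level was above 1 CPM in every sample, Mrpl28 being the exception. The genes lie on 16 chromosomes, and the exons of 15 overlap those of another protein-coding gene.

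Most members shared the group with the highest mean, while the group with the lowest mean varied. The mean level was highest in tumor OX40plus Tregs for 51 of 57 members. It was lowest in spleen OX40minus Tregs for 35, tumor OX40minus for 15, spleen OX40plus for 6 and tumor OX40plus for 1. For 37 members tumor OX40plus was followed by tumor OX40minus, with both spleen groups below. The shares of all genes with these orders were not computed. Summed over the 57 members, the 4 tumor OX40plus samples held 3513, 3530, 3883 and 4562 CPM, and the 4 tumor OX40minus samples 2775, 2769, 2752 and 2590 CPM. The 3 spleen OX40plus samples held 2214, 2105 and 2710 CPM, and the 3 spleen OX40minus samples 2537, 2133 and 1960 CPM. Every tumor OX40plus sum was thus above every other sum, every tumor OX40minus sum but the lowest was above all spleen sums, and the spleen groups overlapped. The ratio of large-subunit to small-subunit sums lay between 1.87 and 2.13 in all 14 samples.

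**Figure D1:**
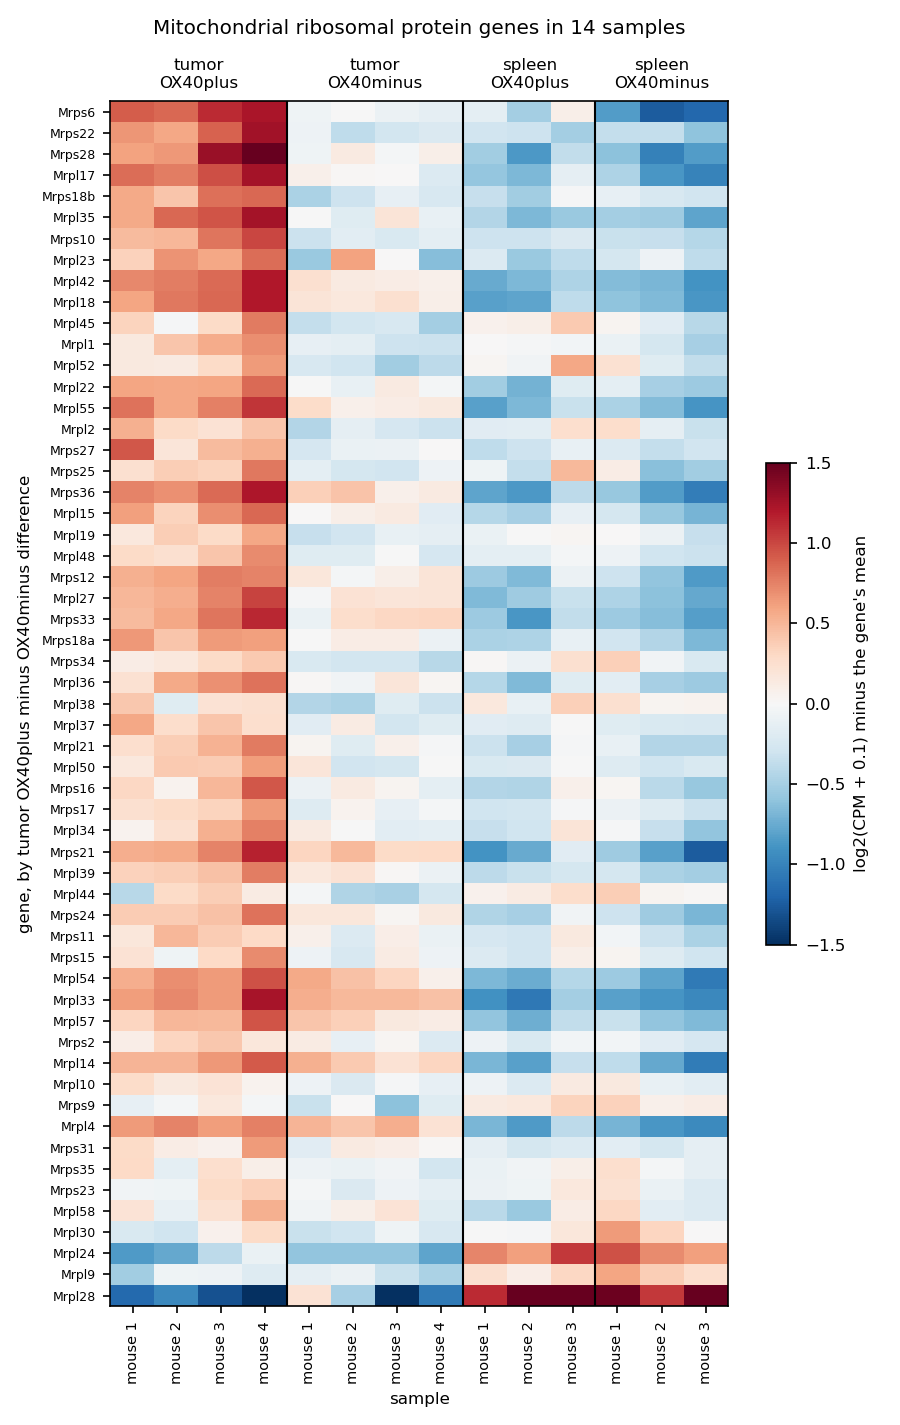
Level of each of the 57 genes (rows) in each of the 14 samples (columns), as log2(CPM + 0.1) minus the gene's mean over the samples, with genes ordered by the tumor OX40plus minus OX40minus difference. The tumor OX40plus columns are the highest for most rows, and Mrpl24, Mrpl9 and Mrpl28 at the bottom run the other way between tissues.

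**Figure D2:**
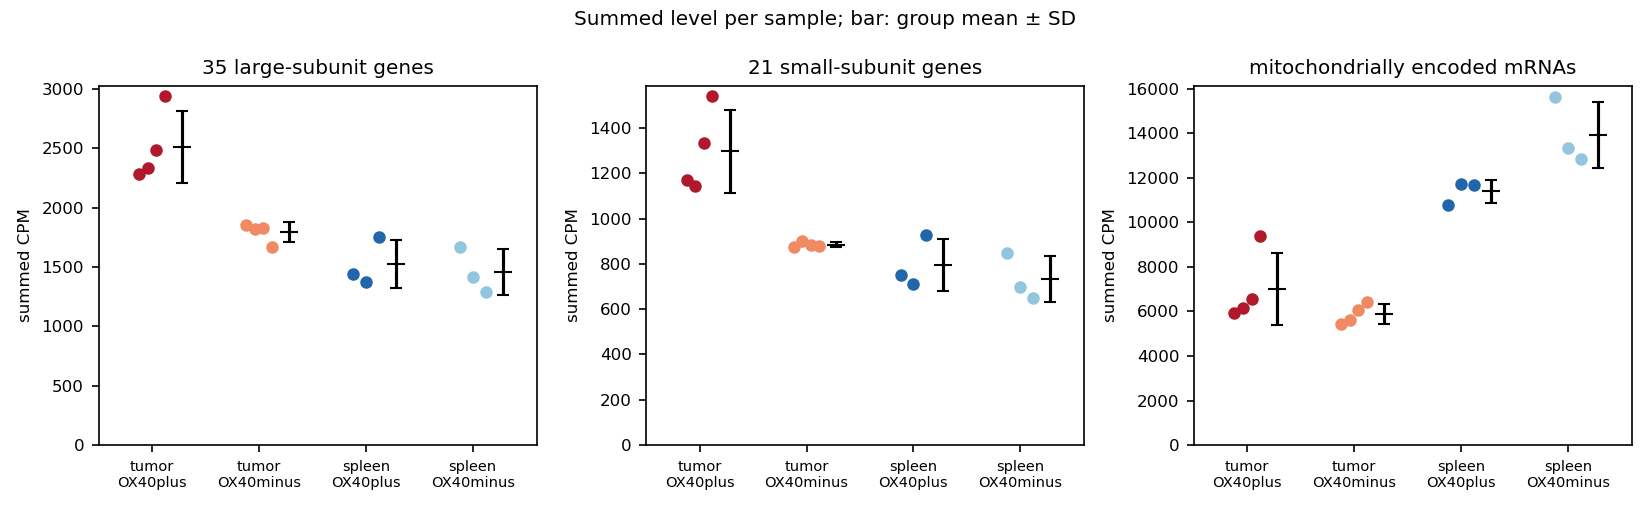
Summed CPM of the 35 large-subunit genes, the 21 small-subunit genes and, for comparison, the 13 mRNAs of the mitochondrial genome, with a point per sample and the group mean ± SD beside it. The sums of the mitochondrial ribosomal protein genes are highest in tumor OX40plus samples, and the sum of the mitochondrially encoded mRNAs in the spleen samples. In that last sum COX1 alone averages 1310 CPM in tumor OX40plus and 5260 CPM in spleen OX40plus samples. Of the 13 mRNAs, 3 were called higher and 7 lower in tumor over spleen OX40plus Tregs.

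The mice of a group differed from one another by a median coefficient of variation of 15.6% per member in tumor OX40plus, 8.51% in tumor OX40minus, 14.2% in spleen OX40plus and 13.3% in spleen OX40minus samples. Among the 8696 genes in the same range of levels the medians were 18%, 14.5%, 11.8% and 9.49% in the same groups.

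Promoter sequences are shown for 6 members on which the comparisons below turn: Mrps6, the only member called in both tissues' OX40 comparisons, and Mrps18b, Mrps10, Mrps22, Mrpl35 and Mrpl42, which had the smallest adjusted p for a difference between those comparisons. Each runs from 250 bases before to 50 bases after the RefSeq start on GRCm38.p6, 5′ to 3′ on the gene's strand, and RefSeq starts can differ from the gene ends given from GENCODE. Capitals mark the letters of 5 searched motifs on either strand: GCGCA, any base and GCGC (NRF1), CCGGAAG (ETS factors such as GABP), CACGTG (E-box), AAGATGGCG (YY1) and GGGCGG (SP1), a match being a run of letters and nothing more. Mrps6 lies at chr16:92058086-92058385 on the plus strand and holds GGGCGG at 4 positions, -114, -109, -95 and -79 from the start. Mrps18b lies at chr17:35916391-35916690 on the minus strand and holds the ETS letters on the other strand, 44 bases after the start. It also holds GGGCGG on the other strand, read as CCGCCC, at -63 and -47. Mrps10 lies at chr17:47368947-47369246 on the plus strand and holds none of the 5. Mrps22 lies at chr9:98601630-98601929 on the minus strand, with the ETS letters at -11 and GGGCGG at -147. Mrpl35 lies at chr6:71823735-71824034 on the minus strand, and Mrpl42 at chr10:95501900-95502199 on the minus strand, with the YY1 letters 24 and 28 bases after the start of each. Mrpl42 also holds CCGCCC at -90.
Mrps6: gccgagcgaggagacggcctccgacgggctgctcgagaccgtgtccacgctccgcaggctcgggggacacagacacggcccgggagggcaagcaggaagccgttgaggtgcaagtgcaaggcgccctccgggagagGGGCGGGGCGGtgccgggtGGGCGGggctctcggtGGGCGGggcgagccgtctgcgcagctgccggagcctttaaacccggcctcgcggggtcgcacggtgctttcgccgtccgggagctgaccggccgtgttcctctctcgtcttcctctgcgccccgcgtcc
Mrps18b: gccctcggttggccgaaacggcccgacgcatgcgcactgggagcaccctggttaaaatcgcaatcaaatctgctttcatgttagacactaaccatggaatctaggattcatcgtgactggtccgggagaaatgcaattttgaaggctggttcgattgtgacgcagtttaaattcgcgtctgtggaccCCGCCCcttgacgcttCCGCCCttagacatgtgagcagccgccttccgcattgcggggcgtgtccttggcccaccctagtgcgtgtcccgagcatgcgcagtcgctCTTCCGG
Mrps10: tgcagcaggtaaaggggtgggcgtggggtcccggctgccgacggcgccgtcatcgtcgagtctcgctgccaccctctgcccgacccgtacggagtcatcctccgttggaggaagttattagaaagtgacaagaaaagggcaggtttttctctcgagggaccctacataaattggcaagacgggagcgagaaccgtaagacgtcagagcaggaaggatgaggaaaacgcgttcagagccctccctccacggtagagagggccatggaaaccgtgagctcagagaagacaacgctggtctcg
Mrps22: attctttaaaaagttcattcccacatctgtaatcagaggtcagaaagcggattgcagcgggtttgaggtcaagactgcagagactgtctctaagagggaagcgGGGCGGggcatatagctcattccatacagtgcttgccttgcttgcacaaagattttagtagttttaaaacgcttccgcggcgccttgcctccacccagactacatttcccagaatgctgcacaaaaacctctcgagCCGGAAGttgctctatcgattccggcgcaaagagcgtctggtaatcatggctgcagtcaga
Mrpl35: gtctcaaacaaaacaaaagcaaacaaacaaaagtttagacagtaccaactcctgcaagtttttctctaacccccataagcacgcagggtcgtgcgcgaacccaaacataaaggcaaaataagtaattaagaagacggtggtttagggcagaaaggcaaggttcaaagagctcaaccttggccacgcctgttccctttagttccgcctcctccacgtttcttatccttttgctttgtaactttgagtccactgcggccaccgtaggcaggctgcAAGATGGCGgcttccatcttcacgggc
Mrpl42: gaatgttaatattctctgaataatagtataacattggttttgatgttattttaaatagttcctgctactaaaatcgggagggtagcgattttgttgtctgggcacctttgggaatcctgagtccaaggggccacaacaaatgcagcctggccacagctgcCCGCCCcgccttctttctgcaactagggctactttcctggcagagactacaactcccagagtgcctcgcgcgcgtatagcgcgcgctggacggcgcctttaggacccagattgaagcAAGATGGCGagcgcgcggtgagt

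Such a sequence was at hand for 49 of the 57 members. The ETS letters stood in 19 of the 49 member promoters (38.8%), against 16.3% of 10484 promoters of genes in the table and 9.12% of all 27025. The YY1 letters stood in 8 (16.3%), against 2.92% and 1.49%, and the NRF1 letters in 10 (20.4%), against 9.24% and 4.78%. GGGCGG stood in 23 (46.9%), against 60.6% and 35.9%, and the E-box in 3 (6.12%), against 9.62% and 7.24%. In 32 of the 49 at least 1 of the ETS, YY1 and NRF1 letters was found, in 2 both the ETS and YY1 letters, and in 8 none of the 5.

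In tumors, OX40plus Tregs had more transcript of most mitochondrial ribosomal protein genes than OX40minus Tregs. Of 57 members 41 were called higher and 0 lower (0 lower also by limma-voom) in limma's moderated test, two-sided at a Benjamini-Hochberg adjusted p under 0.05 over all 12509 genes. Over all genes, 38.5% were called, 18.6% higher and 20.0% lower. The median log2 fold change of the members was 0.53, a 1.44-fold difference, against -0.07 for all genes tested. In 56 of 57 members the estimate was above 0, with a range from -0.69 for Mrpl28 to 1.10 for Mrps6. In 38 members all 4 tumor OX40plus samples lay above all 4 tumor OX40minus samples, which held for 16.7% of all genes in that direction. Of 21 small-subunit genes 15 were higher, with a median of 0.47, and of 35 large-subunit genes 25, with a median of 0.53. Of the 34 members classed as having bacterial relatives 24 were higher (median 0.48), and of the 22 classed as mitochondria-specific 16 (median 0.53). The second class holds Mrps18b, although that gene has a bacterial relative, as given below. These splits were not tested against each other. Of the 42 members with no exon overlap with another coding gene, 30 were higher.

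The tumor gates also differed in other measures. Macrophage or monocyte marker sums were lower in tumor OX40plus samples, as given above, and 8 of the 9 markers were called lower. The 7 dendritic cell markers in the table summed to 40.7 to 70.5 CPM in tumor OX40plus and 140.5 to 203 CPM in tumor OX40minus samples, with 5 called lower, and the 7 NK cell markers to 2.25 to 10.9 CPM in tumor OX40plus and 6.24 to 16.2 CPM in tumor OX40minus samples, with 5 called lower. The 9 proliferation genes summed to 3466 to 3892 CPM in tumor OX40plus and 1483 to 1855 CPM in tumor OX40minus samples, with 9 of 9 called higher. The part of any of these in the member differences was not tested. Without tumor OX40plus mouse 4, 35 members were called higher and the median was 0.45. With the mouse as a block, 34 were called.

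**Figure D3:**
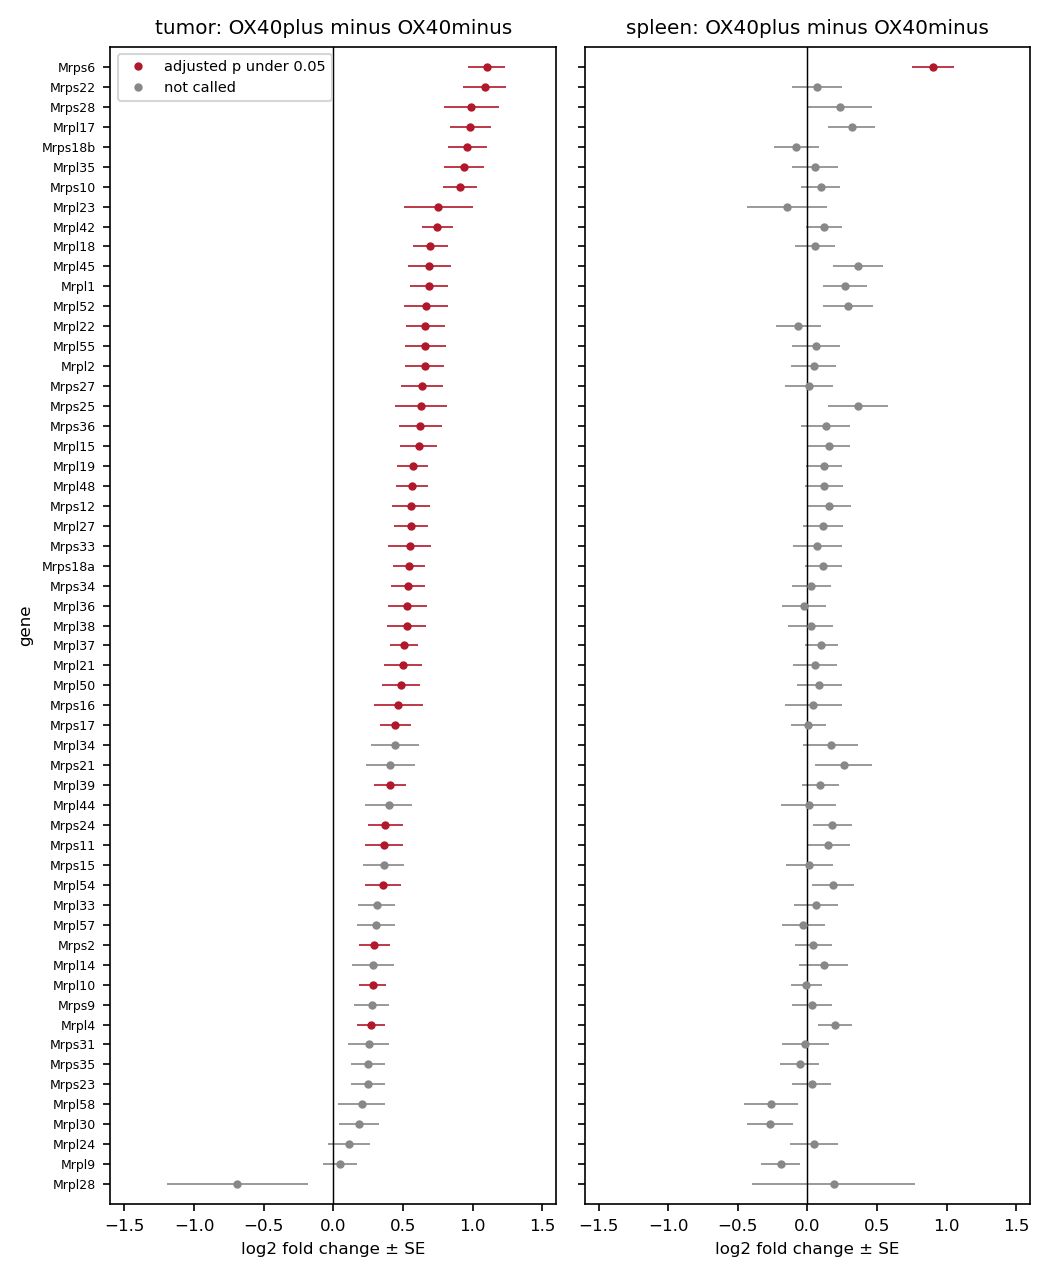
Log2 fold change of OX40plus over OX40minus Tregs ± SE for each of the 57 genes in tumors (left, n = 4 against 4) and in spleens (right, n = 3 against 3), in 1 order of genes. Red marks an adjusted p under 0.05, which 41 genes reached in tumors and Mrps6 alone in spleens.

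**Figure D4:**
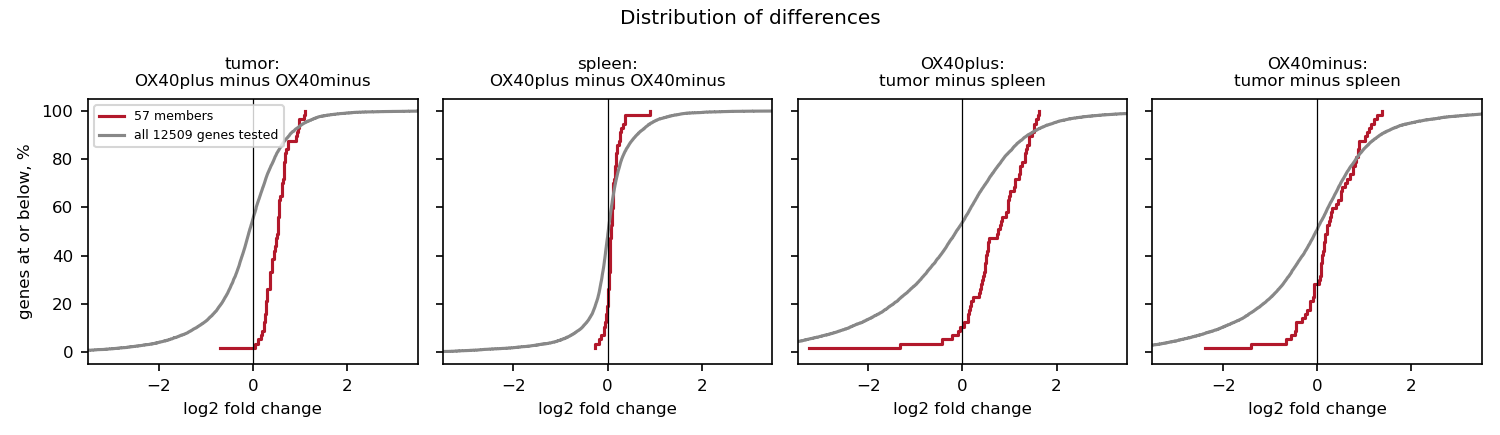
Cumulative distribution of the log2 fold change over the 57 members (red) and all 12509 genes tested (gray) in each of the 4 pairwise comparisons. The member curve lies to the right of the curve of all genes for most of its length in the tumor OX40 comparison and in both comparisons of tumor with spleen, and close to 0 in the spleen OX40 comparison.

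Among the small-subunit genes, Mrps6 (chr16:92058270-92112227, plus strand), whose protein is the relative of bacterial S6, had the largest tumor difference. Its level was 107, 103, 124 and 133 CPM in the tumor OX40plus mice and 54.4, 56.7, 53.6 and 51.98 CPM in the tumor OX40minus mice, a log2 fold change of 1.10 ± 0.13 (SE; limma adjusted p = 1.04e-05). Every OX40plus sample was above every OX40minus sample, and the lowest OX40plus value was well clear of the highest OX40minus value. Mrps22 (chr9:98588730-98601660, minus strand), a mitochondria-specific protein needed for a stable small subunit, stood at 31.7, 30.0, 36.9 and 47.8 CPM in tumor OX40plus and 18.9, 15.3, 16.5 and 17.2 CPM in tumor OX40minus Tregs. The groups did not overlap, and the log2 fold change was 1.09 ± 0.15 (SE; limma adjusted p = 5.07e-05). Mrps28 (chr3:8802146-8923918, minus strand), the relative of bacterial S1, had 33.3, 34.3, 53.9 and 63.5 CPM in tumor OX40plus and 20.96, 24.1, 21.4 and 23.2 CPM in tumor OX40minus Tregs, and differed by 0.99 ± 0.20 (SE; limma adjusted p = 0.000926). Here mice 3 and 4 of the OX40plus group were far above mice 1 and 2, which in turn exceeded all OX40minus samples.

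Mrps18b (chr17:35910379-35916389, minus strand) is one of the mammalian genes related to bacterial S18, and its protein takes a place of its own in the small subunit. It had 45.2, 40.5, 54.02 and 55.3 CPM in tumor OX40plus and 21.8, 24.4, 27.8 and 25.7 CPM in tumor OX40minus Tregs, with no overlap and a log2 fold change of 0.96 ± 0.14 (SE; limma adjusted p = 5.54e-05). Mrps10 (chr17:47368887-47381417, plus strand), the relative of bacterial S10, had 43.9, 44.7, 54.9 and 63.2 CPM in tumor OX40plus and 25.1, 28.3, 26.9 and 28.4 CPM in tumor OX40minus Tregs, again without overlap, and differed by 0.91 ± 0.12 (SE; limma adjusted p = 2.85e-05). Mrps12, whose protein sits at the decoding centre, rose by 0.56 ± 0.14 (SE; limma adjusted p = 0.00419), close to the median of the family. Of the 6 small-subunit genes that were not called, Mrps21 had the largest estimate, 0.41 (limma adjusted p = 0.0801). Its tumor groups did not overlap, and it was called with limma-voom, with only the tumor groups fitted and without spleen OX40plus mouse 3, at adjusted p of 0.0448, 0.0335 and 0.0449.

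Among the large-subunit genes, Mrpl17, Mrpl22, Mrpl23 and Mrpl24, whose proteins lie around the polypeptide tunnel and its exit, had unlike estimates. Mrpl17 (chr7:105803206-105811099, minus strand), the relative of bacterial L17, had 89.1, 85.3, 97.8 and 119 CPM in tumor OX40plus and 52.6, 50.4, 50.3 and 43.3 CPM in tumor OX40minus Tregs, with no overlap and a log2 fold change of 0.98 ± 0.15 (SE; limma adjusted p = 7.96e-05). Mrpl23, also at the exit, was called higher by 0.75 ± 0.25 (SE; limma adjusted p = 0.0248), but its levels of 11.9, 15.04, 14.04 and 16.9 CPM in tumor OX40plus and 6.36, 14.3, 9.40 and 5.97 CPM in tumor OX40minus Tregs overlapped. The Mrpl23 call was lost with only the tumor groups fitted, at an adjusted p of 0.0679, and without OX40plus mouse 2 or 4 or OX40minus mouse 1 or 4, at adjusted p of 0.0505 to 0.0845. Mrpl22, whose protein lines the tunnel, rose by 0.66 ± 0.14 (SE; limma adjusted p = 0.00155). Mrpl24, next to them, had 40.3, 42.6, 55.03 and 67.5 CPM in tumor OX40plus and 48.2, 48.2, 48.1 and 41.98 CPM in tumor OX40minus Tregs. These groups overlapped, and the estimate of 0.11 ± 0.15 (SE; limma adjusted p = 0.595) turned to -0.03 without OX40plus mouse 4.

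Mrpl35 (chr6:71812997-71826969, minus strand), the relative of bacterial L35, had 43.6, 53.6, 56.8 and 70.4 CPM in tumor OX40plus and 29.3, 25.97, 33.8 and 27.2 CPM in tumor OX40minus Tregs and differed by 0.94 ± 0.14 (SE; limma adjusted p = 0.000106). Mrpl42 (chr10:95480805-95501940, minus strand), a mitochondria-specific protein, had 105, 109, 115 and 147 CPM in tumor OX40plus and 74.97, 69.99, 68.8 and 66.98 CPM in tumor OX40minus Tregs, a log2 fold change of 0.75 ± 0.11 (SE; limma adjusted p = 7.59e-05). Neither gene's groups overlapped. Mrpl18, the relative of bacterial L18, rose by 0.70 ± 0.12 (SE; limma adjusted p = 0.000383); its exons overlap those of Tcp1 on the other strand, and whether the counting used strand is not given in the sources used here.

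Mrpl45, which helps to hold the ribosome at the inner membrane, rose by 0.69 ± 0.15 (SE; limma adjusted p = 0.0022), and Mrps36 of the 2-oxoglutarate dehydrogenase complex by 0.62 ± 0.15 (SE; limma adjusted p = 0.0041). Mrps18a, whose protein sits in the large subunit despite its name, rose by 0.54 ± 0.12 (SE; limma adjusted p = 0.0015). Mrpl10, of the stalk that binds translation factors, was called at 0.28 ± 0.10 (SE; limma adjusted p = 0.0305), but not with the mouse as a block, where the adjusted p was 0.0554, nor without OX40plus mouse 1 or 3 or OX40minus mouse 2 or 4, at 0.0609 to 0.0828. Mrpl44, related to ribonuclease III, had an estimate of 0.40 (limma adjusted p = 0.0739), and Mrpl58, which also acts as a hydrolase that frees peptides from stalled ribosomes, one of 0.20 (limma adjusted p = 0.37). Mrpl44 was called without mouse 1 of the tumor OX40plus or of the tumor OX40minus group, at adjusted p of 0.00562 and 0.0413. Mrpl9, the relative of bacterial L9, was at 0.05 ± 0.12 (SE; limma adjusted p = 0.797).

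In spleens Mrps6 was the only member called between OX40plus and OX40minus Tregs, with 1 of 57 higher and 0 lower, against 7.99% of all genes called, 4.39% higher and 3.6% lower. At an unadjusted p under 0.05 the count of members was also 1, and limma-voom gave 1 too. The median log2 fold change was 0.07, against 0.01 for all genes, and ranged from -0.27 to 0.90. In 4 members all 3 spleen OX40plus samples lay above all 3 spleen OX40minus samples, and in 0 below, where 17.4% and 14.4% of all genes did so. The median was 0.16 without spleen OX40minus mouse 1 and -0.01 without spleen OX40plus mouse 3. Proliferation genes were higher in spleen OX40plus samples too, with sums of 1081 to 1715 CPM in OX40plus and 700 to 863 CPM in OX40minus samples and 8 of 9 called, and 8 of 9 macrophage or monocyte markers were called lower. Their part in the member values was not tested.

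Mrps6 stood at 51.6, 39.8 and 60.5 CPM in spleen OX40plus and 31.7, 23.8 and 25.1 CPM in spleen OX40minus Tregs. The groups did not overlap, and the log2 fold change of 0.90 ± 0.15 (SE; limma adjusted p = 0.00127) was 0.20 below that in tumors, a difference that was not called (limma adjusted p = 0.585). The exons of Mrps6 overlap on the same strand with those of Slc5a3, the myo-inositol transporter, and of Gm49711. Reads in shared sequence cannot be assigned to any of these genes with certainty. Slc5a3 stood at 27.6, 33.9, 31.3 and 11.3 CPM in tumor OX40plus and 9.10, 11.1, 15.01 and 13.7 CPM in tumor OX40minus Tregs, a log2 fold change of 1.00 ± 0.30 (SE; limma adjusted p = 0.0147). In spleens it stood at 52.5, 48.3 and 33.0 CPM in OX40plus and 16.2, 21.6 and 27.0 CPM in OX40minus Tregs, a log2 fold change of 1.05 ± 0.35 (SE; limma adjusted p = 0.0822). At the same fold change that spleen difference was called with only the spleen groups fitted, at an adjusted p of 0.0178, and without tumor OX40plus mouse 4, at 0.00824, a sample of another group with which the fit shares its estimate of the spread. Between tissues the neighbours ran opposite ways: Slc5a3 differed by -0.87 ± 0.32 (limma adjusted p = 0.0273) in tumor over spleen OX40plus Tregs, where Mrps6 differed by 1.22 ± 0.14 (limma adjusted p = 1.43e-06). This Slc5a3 call between tissues was lost with only its groups fitted, at an adjusted p of 0.0546, and without tumor OX40plus mouse 4 or spleen OX40plus mouse 1 or 2, at 0.0683 to 0.105.

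**Figure D5:**
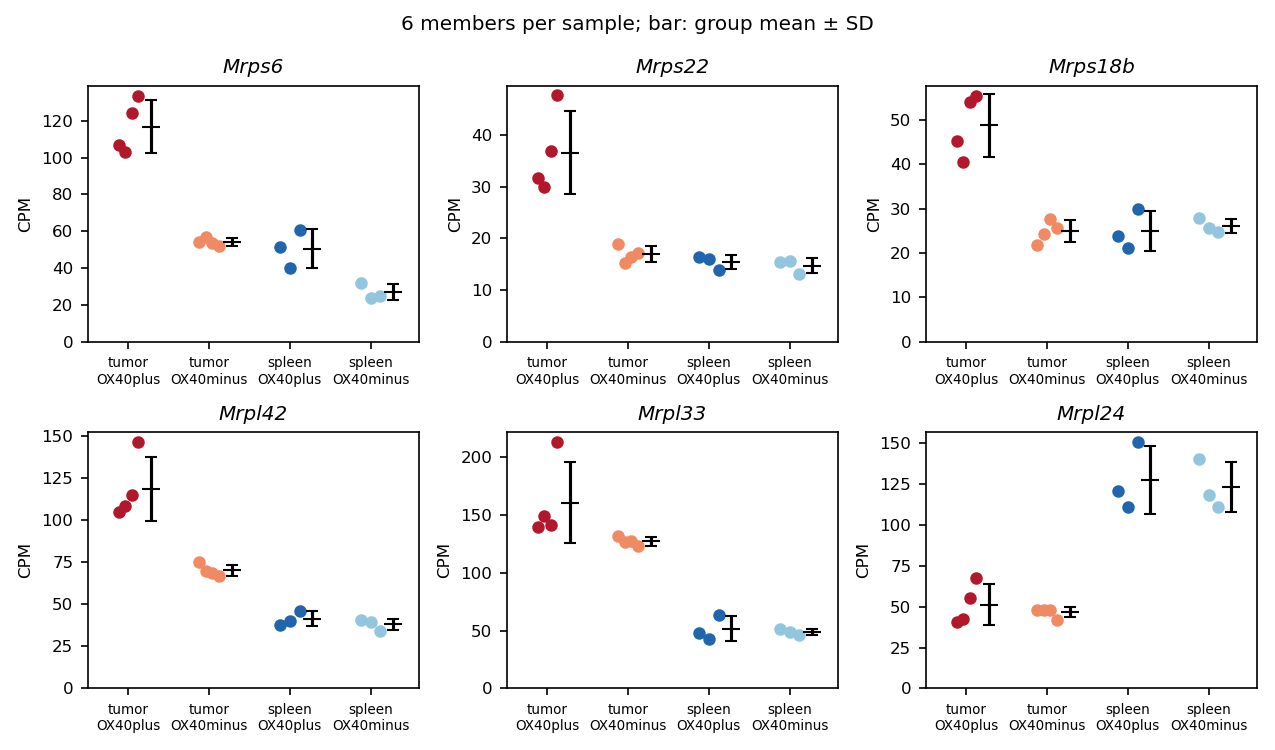
CPM of 6 genes in each sample (points) with the group mean ± SD beside them. Mrps6 differs between gates in both tissues and between tissues in both gates. Mrps22 and Mrps18b differ between gates in tumors and between tissues in OX40plus Tregs. Mrpl42 differs between gates in tumors and between tissues, and Mrpl33 mainly between tissues. Mrpl24 is lower in both tumor groups than in both spleen groups.

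Between tissues, OX40plus Tregs of the tumor had more transcript of most members than OX40plus Tregs of the spleen. Of 57 members 43 were called higher and 3 lower, against 30.3% higher and 34.2% lower (64.5% in all) of all genes. The median log2 fold change was 0.76, against -0.13 for all genes. At 1 or more 20 members were called, as were 1917 of all 12509 genes. At -1 or below 2 members were called, as were 2939 of all genes. With scaling to library size alone the median of all genes moved to -0.23, that of the members to 0.66, and 39 members were called higher and 4 lower. In the large subunit 26 of 35 were higher (median 0.76), and in the small subunit 16 of 21 (median 0.73). Members classed as having bacterial relatives had a median of 0.90 and those classed as mitochondria-specific one of 0.51, a difference that was not tested. B cell marker sums were far lower and melanocyte marker sums higher in the tumor samples, as given above, and proliferation sums were higher, with 8 of 9 genes called. Their part in the member differences was not tested.

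The highest difference in OX40plus Tregs was that of Mrpl33, the relative of bacterial L33, at 1.63 ± 0.15 (SE; limma adjusted p = 6.34e-08). Its level was 139.5, 149, 141 and 213 CPM in tumor OX40plus and 48.2, 43.1 and 63.7 CPM in spleen OX40plus Tregs. Every tumor sample lay far above every spleen sample. Mrps28 followed at 1.61 ± 0.21 (limma adjusted p = 5.72e-06), Mrps36 at 1.56 ± 0.16 (limma adjusted p = 4.76e-07), Mrpl18 at 1.53 ± 0.13 (limma adjusted p = 5.73e-08) and Mrpl42 at 1.52 ± 0.12 (limma adjusted p = 1.64e-08). Mrpl35, Mrpl17 and Mrpl55 had log2 fold changes of 1.47, 1.42 and 1.42.

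In OX40minus Tregs the members were divided between higher and lower in tumors. Of the 57 members 23 were called higher and 8 lower in tumor over spleen OX40minus Tregs, against 29.7% higher and 29.3% lower (59.1% in all) of all genes, with a median of 0.20 against -0.03. All 23 were also called higher in the OX40plus comparison, where 30.3% of all genes were called higher. How many of all genes were called higher in both comparisons was not counted. The OX40plus comparison uses other sorted samples, but by the titles they come from the same mice. Both comparisons also share 1 fit. A further 20 were called higher in the OX40plus comparison and not called in the OX40minus one, and the difference between the 2 comparisons is the interaction tested below. Mrpl33 again led, at 1.38 ± 0.15 (SE; limma adjusted p = 6.25e-07), with 132, 127, 127 and 123 CPM in tumor OX40minus and 51.5, 48.95 and 46.2 CPM in spleen OX40minus Tregs. The groups lay far apart, with all 4 tumor samples above all 3 spleen samples. Mrpl4, Mrps21, Mrpl54, Mrpl14, Mrps36 and Mrps6 followed with 1.26, 1.21, 1.15, 1.10, 1.06 and 1.02. The 4 other than Mrps6 and Mrps36 had estimates between the tumor gates from 0.27 for Mrpl4 to 0.41 for Mrps21. Between those gates the calls of Mrpl4 and Mrpl54 were lost with the mouse as a block, at adjusted p of 0.0951 and 0.0978, and in 10 and 7 of the 14 fits with a sample left out, at 0.0519 to 0.162 and 0.0526 to 0.141, among them that without tumor OX40plus mouse 4. Beside these differences, 7 of 9 macrophage or monocyte markers and 6 of 6 B cell markers were called lower in tumor OX40minus samples, 4 of 7 dendritic cell markers higher and 1 lower, 5 of 6 melanocyte or B16 markers higher and 1 lower, and 8 of 9 proliferation genes higher and 1 lower. Their part in the member differences was not tested.

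A few members were lower in tumor than in spleen Tregs in both gates: Mrpl28, Mrpl24 and Mrpl9. Mrpl24 (chr3:87919506-87923672, plus strand) had 40.3, 42.6, 55.03 and 67.5 CPM in tumor OX40plus and 121, 111 and 151 CPM in spleen OX40plus Tregs, a log2 fold change of -1.33 ± 0.16 (SE; limma adjusted p = 2.10e-06). It had 48.2, 48.2, 48.1 and 41.98 CPM in tumor OX40minus and 141, 118 and 111 CPM in spleen OX40minus Tregs, a log2 fold change of -1.40 ± 0.16 (SE; limma adjusted p = 1.71e-06). All 8 tumor samples were below all 6 spleen samples. Mrpl9 differed by -0.43 ± 0.13 (SE; limma adjusted p = 0.00897) in OX40plus and -0.67 ± 0.13 (SE; limma adjusted p = 0.000366) in OX40minus Tregs. The exons of Mrpl24 overlap those of Rrnad1, and those of Mrpl9 overlap Oaz3, on the other strand in both cases.

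Mrpl28 (chr17:26123500-26126613, plus strand), the relative of bacterial L28, was low in all groups and lowest in tumors. It had 0.374, 0.443, 0.331 and 0.118 CPM in tumor OX40plus and 2.22, 3.09 and 3.92 CPM in spleen OX40plus Tregs, and 1.14, 0.654, 0.254 and 0.409 CPM in tumor OX40minus and 2.86, 2.12 and 2.94 CPM in spleen OX40minus Tregs. The lowest tumor OX40plus value, of mouse 4, lies at about the level of 3 counts, and every spleen value lies above every tumor value. The log2 fold changes were -3.26 ± 0.55 (SE; limma adjusted p = 7.11e-05) in OX40plus and -2.38 ± 0.55 (SE; limma adjusted p = 0.00143) in OX40minus Tregs. Between the tumor gates it differed by -0.69 ± 0.51 (SE; limma adjusted p = 0.307), which was not called. A further 5 members were called lower in the OX40minus comparison and not in the OX40plus one: Mrpl30 at -0.55, Mrpl38 at -0.47, Mrps9 at -0.46, Mrpl44 at -0.45 and Mrps34 at -0.33. The exons of Mrps34 overlap those of Nme3 on the same strand and Mapk8ip3 on the other, and those of Mrpl44 overlap Wdfy1 on the other strand. Without spleen OX40minus mouse 1, 5 members in all were lower, the calls of Mrpl38, Mrpl44 and Mrps34 being lost at adjusted p of 0.0601, 0.183 and 0.307. The Mrpl44 and Mrps34 calls were lost in 8 and 9 of the 14 fits with a sample left out, at adjusted p of 0.0538 to 0.183 and 0.0509 to 0.307, and that of Mrps34 also with only its groups fitted, at 0.0596, and with the mouse as a block, at 0.108.

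Whether the OX40 difference itself was larger in tumors than in spleens was tested as an interaction. It was called for 7 of 57 members, all with the larger difference in tumors, against 4.53% of all genes in that direction and 6.38% in the other (10.9% in all). The median over the members was 0.41, against -0.06 for all genes, and 56 of 57 estimates were above 0. Mrps18b led, with 1.04 ± 0.21 (SE; limma adjusted p = 0.00547): beside the tumor values given above it had 23.8, 21.04 and 29.9 CPM in spleen OX40plus and 27.8, 25.6 and 24.8 CPM in spleen OX40minus Tregs, which overlapped. Mrps22 differed by 1.02 ± 0.24 (SE; limma adjusted p = 0.0124), with 16.3, 16.02 and 13.97 CPM in spleen OX40plus and 15.5, 15.6 and 13.1 CPM in spleen OX40minus Tregs. Mrps10 differed by 0.81 ± 0.19 (SE; limma adjusted p = 0.0115), with 25.4, 25.4 and 27.2 CPM in spleen OX40plus and 24.9, 24.7 and 23.4 CPM in spleen OX40minus Tregs. In Mrps18b and Mrps22 the spleen gates overlapped, and in Mrps10 the OX40plus values lay just above the OX40minus ones.

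The other 4 were large-subunit genes: Mrpl35 at 0.88 ± 0.22 (limma adjusted p = 0.0181), Mrpl42 at 0.63 ± 0.17 (limma adjusted p = 0.0263), Mrpl22 at 0.73 ± 0.21 (limma adjusted p = 0.0402) and Mrpl18 at 0.64 ± 0.19 (limma adjusted p = 0.0404). Fitted with the mouse as a block, 4 members were called, and Mrpl42, Mrpl22 and Mrpl18 were not, at adjusted p of 0.0806, 0.0892 and 0.0957. The count was 3 without spleen OX40minus mouse 1 or mouse 2, 4 without tumor OX40minus mouse 4, spleen OX40plus mouse 1 or spleen OX40plus mouse 2, and 10 without spleen OX40plus mouse 3. With a sample left out, the Mrpl18 call was lost in 10 of 14 fits, at adjusted p of 0.0501 to 0.122, and that of Mrpl22 in 9, at 0.0562 to 0.119, in both cases also without tumor OX40plus mouse 4. The Mrpl42 call was lost in 5, at 0.0513 to 0.0847, and that of Mrpl35 in 2, at 0.0513 and 0.0542. Mrpl17 was called only without spleen OX40plus mouse 3 among these fits, at 0.0243. Mrps18b, Mrps10 and Mrps22 were called in every fit that was run. Across the 57 members the tumor and spleen OX40 differences, which share no samples, had a Pearson r of 0.347 and a Spearman rho of 0.342, given as a description since genes are not independent replicates.

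Proteins of the mitochondrial ribosome whose genes carry other names were looked at beside the family. Of 5 such genes 4 had rows, and 2 were called higher in tumor OX40plus Tregs. Ptcd3, a small-subunit protein with RNA-binding repeats, had 97.3, 85.7, 90.1 and 92.9 CPM in tumor OX40plus and 62.99, 51.5, 59.3 and 55.5 CPM in tumor OX40minus Tregs, a log2 fold change of 0.68 ± 0.08 (SE; limma adjusted p = 1.52e-05). The groups did not overlap, and the difference exceeded that in spleens by 0.66 ± 0.13 (SE; limma adjusted p = 0.00411). Chchd1 rose by 0.77 ± 0.15 (SE; limma adjusted p = 0.000794). Aurkaip1 and Dap3 had estimates of 0.26 (limma adjusted p = 0.108) and 0.21 (limma adjusted p = 0.148).

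Genes that work with the ribosome were called in part in the tumor OX40 comparison, where 18.6% of all genes were called higher and 20.0% lower. Of 11 tested translation factors 6 were higher and 0 lower, among them Tsfm at 0.69 (limma adjusted p = 0.000282) and Tufm at 0.54 (limma adjusted p = 0.0007), both elongation factors, and the release factor family gene Mtrf1 at 1.25 (limma adjusted p = 0.000759). Of 26 assembly genes 8 were higher and 1 lower. C1qbp, a matrix protein that binds RNA, had 99.9, 111, 125 and 131 CPM in tumor OX40plus and 44.9, 57.9, 57.3 and 43.4 CPM in tumor OX40minus Tregs and rose by 1.20 ± 0.12 (SE; limma adjusted p = 2.58e-06). Its groups did not overlap. The rRNA methyltransferase Mrm3 was at 1.22 (limma adjusted p = 0.00097), the GTPase Noa1 at 0.99 (limma adjusted p = 1.34e-05) and Fastkd2, which binds the large-subunit rRNA, at 0.84 (limma adjusted p = 0.000302). Of 17 genes for charging mitochondrial tRNAs 7 were higher and 1 lower, with Nars2, for asparagine, at 1.00 (limma adjusted p = 0.000779). Of 17 genes of mitochondrial transcription, replication and RNA stability 8 were higher and 1 lower. The helicase gene Twnk was at 1.36 (limma adjusted p = 0.000105), Lrpprc, which stabilises mitochondrial mRNAs, at 0.74 (limma adjusted p = 0.00225), and Polg2, of the DNA polymerase, at -0.56 (limma adjusted p = 0.00312). In spleens 0 genes of these 5 lists were called in limma, with 2 (both in the tRNA charging list) at an unadjusted p under 0.05 and 0 by limma-voom, against 7.99% of all genes called. The median differences in tumors were 0.29 for the translation factors, 0.19 for the assembly genes, 0.19 for the tRNA charging genes and 0.30 for the transcription list, beside 0.53 for the family and -0.07 for all genes.

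The 13 mRNAs that the mitochondrial ribosome translates did not follow its protein genes between tissues. In tumor OX40plus over spleen OX40plus Tregs 3 were called higher and 7 lower, against 30.3% and 34.2% of all genes, and in tumor OX40minus over spleen OX40minus Tregs 1 was higher and 9 lower, against 29.7% and 29.3%. COX1, for the catalytic subunit of cytochrome c oxidase, had 1160.0, 1212, 1243 and 1624 CPM in tumor OX40plus and 5315, 5344 and 5121 CPM in spleen OX40plus Tregs, a log2 fold change of -2.02 ± 0.12 (SE; limma adjusted p = 7.66e-10). All tumor values were far below all spleen values. ATP6, for a subunit of the ATP synthase, ran the other way, at 1.17 ± 0.19 (SE; limma adjusted p = 3.93e-05). Between the tumor gates 3 of 13 were called higher, a share near the 18.6% of all genes: ND1 at 0.51 (limma adjusted p = 0.00593), ND3 at 0.55 (limma adjusted p = 0.0177) and ND2 at 0.31 (limma adjusted p = 0.0462), all of complex I. Tumor OX40plus mouse 4 had the highest summed level of its group, and without it ND3 was not called, at an adjusted p of 0.0572, nor without tumor OX40minus mouse 1, at 0.0605. The ND2 call was lost in 13 of the 14 fits with a sample left out, at adjusted p of 0.0508 to 0.14, and with limma-voom, library size alone and only the tumor groups, at 0.0508, 0.0668 and 0.107. How the libraries selected RNA, which bears on these mRNAs, is not given in the sources used here.

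Of 9 listed regulators of mitochondrial biogenesis, 2 were called higher and 1 lower in tumor OX40plus over tumor OX40minus Tregs, shares near or below the 18.6% and 20.0% of all genes. Myc, a transcription factor of growing cells, had 212, 207, 247 and 169.9 CPM in tumor OX40plus and 123, 112, 110.2 and 124 CPM in tumor OX40minus Tregs, a log2 fold change of 0.82 ± 0.10 (SE; limma adjusted p = 9.25e-06). The groups did not overlap, and the lowest OX40plus sample was mouse 4. Any part of Myc in the member differences was not tested. In spleens Myc had 146, 153 and 159 CPM in OX40plus and 153, 142 and 136 CPM in OX40minus Tregs, with an interaction of 0.73 ± 0.15 (SE; limma adjusted p = 0.00543). The coactivator genes Pprc1 and Ppargc1b were at 0.55 (limma adjusted p = 0.023) and -0.95 (limma adjusted p = 0.0335). The Pprc1 call was lost with only the tumor groups fitted, at an adjusted p of 0.0725, and in 4 of 14 fits with a sample left out, at 0.0542 to 0.0809. The Ppargc1b call was lost with the mouse as a block and with only the tumor groups, at 0.0825 and 0.0815, and in 6 of 14 fits with a sample left out, among them that without tumor OX40plus mouse 4, at 0.0541 to 0.105. Gabpa, which encodes the ETS factor subunit of GABP, was at 0.29 (limma adjusted p = 0.066), and was called with relative log expression factors, at 0.0455, and without tumor OX40plus mouse 4, tumor OX40minus mouse 2 or spleen OX40plus mouse 3, at 0.022 to 0.0493.

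Set beside the promoter letters, all 8 members with the YY1 letters were called higher in tumor OX40plus Tregs, with log2 fold changes from 0.37 to 0.94, and so were 26 of the 41 without them. Of 19 members with the ETS letters 13 were called, and of 30 without them 21. Of 10 with the NRF1 letters 3 were called, and of 39 without them 31, with medians of 0.35 and 0.55. Of 23 with GGGCGG 19 were called, and of 26 without it 15. The 3 with an E-box were all called. These counts describe the promoters shown above and the others at hand, and no test was made of them.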

How the data were processed

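Tregs sorted by OX40 from tumors and spleens were profiled by RNA-seq in 28 libraries from a TruSeq kit, per the labels' protocols. Bcl2fastq 2.19, kallisto and limma were used with build mm10, per the submitters' processing notes. The deposited values are log2 CPM in the form of limma's voom, with 0.5 added to each count, as read from the 451 to 1322 genes per library that share its lowest value. Not given in the sources used here: gene summarisation, scaling, filters, strand. The effective library size taken from the lowest value turned the log2 values into estimated counts, of which 46.6% to 51.2% per library were whole within 0.01. kallisto splits reads among transcripts, so genes with near copies or shared exons are uncertain.

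The median chi-square per gene between the 2 libraries of a mouse and gate was 0.496 to 0.572, where sampling alone gives 0.455, and 1.4 to 12.7 between mice of a group, so pairs were averaged to 14 samples. Genes reaching 0.382 CPM in 3 or more samples and 15 counts in total were tested with limma 3.58.1 in R 4.3.3 (empirical Bayes with a mean-variance trend, 1 fit, 1 term per group, Benjamini-Hochberg over 12509 genes, two-sided). The fit was tested on simulated data. Log2 fold changes understate changes of genes near 0, and SE, SD and p measure the spread between mice. Counts give counting error only.

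OX40plus and OX40minus samples of a tissue share a mouse by their titles. The correlation of their deviations from the group means was -0.16 to 0.11 over all genes. Over the members it was -0.35 to 0.38. The block is an alternative. Whether a mouse number is the same animal in both tissues is not given, and the block between tissues assumes it.

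Members and gene lists were chosen with earlier results of these data known. Named members are, per comparison, up to 8 called with the highest and 8 with the lowest fold change, those against the majority, the 5 highest and 5 lowest levels per kilobase, and a list of members with known roles. Of other lists up to 4 genes with the smallest adjusted p were named. Slc5a3 was added after its overlap with Mrps6 was seen. Gene positions and transcript lengths are GENCODE M21 (GRCm38), promoters RefSeq GRCm38.p6.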

Additional observations from a re-analysis of the deposited data

Results flagged for a closer look

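Within groups of 4 mice, 6 of 74 sets of values had 1 sample far from the other 3 relative to their range, where chance alone gives about 1 in 20. In tumor OX40plus Tregs, mouse 4 had 44.15 CPM of Mrpl22 and 213.0 CPM of Mrpl33, above the other mice, and mouse 2 had 57.74 CPM of Mrps18a, below them. In tumor OX40minus Tregs, mouse 4 had 41.98 CPM of Mrpl24 and a sum over the 57 genes of 2590 CPM, both below the other mice, and mouse 2 had 87.84 CPM of Mrps21, above them.

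The OX40 difference was larger in tumors than in spleens by the test of the difference itself in 7 genes. On the log2 scale the excess was 1.04 for Mrps18b, 0.81 for Mrps10, 1.02 for Mrps22, 0.88 for Mrpl35, 0.63 for Mrpl42, 0.73 for Mrpl22 and 0.64 for Mrpl18.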

How the results depend on the processing

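The alternatives were no filter on low values, a pseudocount of 2, library size alone, relative log expression factors, limma-voom, only the groups compared, the mouse as a replicate block, and each of 14 samples left out. Members called higher in the tumor OX40 comparison numbered 34 with the replicate block, 39 to 43 under the others and 34 to 43 with a sample left out, and 33 of the 41 held in every fit. With the replicate block 38 members were higher in tumor over spleen OX40plus Tregs, and 22 higher and 7 lower in OX40minus Tregs. Between tissues this block takes a mouse number as the same animal in tumor and spleen, which the labels do not give. Tumor mouse 4 has no spleen sample to pair with. The interaction was called for 4 members with the replicate block and for 3 to 10 with a sample left out, and for 766 to 1628 genes in all. The spleen OX40 comparison called 1850 genes with only its groups fitted and 641 to 1191 with a sample left out, against 999, and 1 member each time. Members lower in tumor over spleen OX40minus Tregs numbered 5 to 8 with a sample left out. The tumor OX40 estimates of Mrpl24 and Mrpl9 changed sign when a sample was left out, with ranges of -0.0306 to 0.22 and -0.02 to 0.15. For Mrpl9 the values were -0.0033, -0.0001 and -0.0242 without tumor OX40plus mouse 2, tumor OX40plus mouse 3 and tumor OX40minus mouse 4. The cause of these changes was not tested. Depth limits Mrpl28 in tumors, where the lowest value lies at about 3 counts.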
